A study of Mus musculus with 18 samples.

Results

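MHC class II molecules are the surface proteins on which B cells, dendritic cells and other presenting cells show peptides to CD4+ T cells. The genes described here are 8 genes of that route: the chain genes H2-Aa, H2-Ab1 and H2-Eb1, the coactivator gene Ciita, the invariant chain gene Cd74, the peptide-loading genes H2-DMa and H2-Ob, and the protease gene Ctss. Their mRNA was followed in regulatory T cells (Tregs), CD4+ T cells that depend on the transcription factor Foxp3 and hold other immune cells in check. The genes were chosen by symbol: a probe set with exactly 1 annotated symbol, that symbol among the 8, and the highest mean over all arrays where a gene had several. Each of the 8 had 1 such probe set, so they are 8 of the 19752 genes that the 18 arrays measure with 1 symbol.

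The 18 Affymetrix Mouse Gene 1.0 ST arrays fall into 6 groups of 3, all from mice on the NOD background, a strain that develops autoimmune diabetes. The tagged perinate, tagged adult, untagged perinate and untagged adult groups hold splenic Tregs of female mice at 60 days. These mice carry the alleles Foxp3-eGFP-Cre-ERT2 and Rosa26-YFP, so that tamoxifen switches on YFP for good in cells that express Foxp3 at that time. All of them received 4 tamoxifen injections, between days 0 and 10 of age (perinate) or between days 35 and 45 (adult). Tagged cells are GFP+YFP+ and untagged cells are GFP+YFP-. The tag marks only cells that made Foxp3 during treatment and recombined, and the untagged cells hold every other Treg of the same kind of mouse. The thymus perinate and thymus adult groups hold CD4+ GFP+ Tregs of male mice aged 4 days or 5 weeks, with no tamoxifen in their labels. A different sorter was used for thymus, so tissue, sex, age and sorter cannot be told apart between spleen and thymus.

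Values are log2 intensities of 1 probe set and differences are log2 differences, so a difference of 1 is a doubling. Each array's RNA came from many cells, and fewer cells with a transcript cannot be told apart from less of it per cell. Tregs were present as labelled: Foxp3 lay between 11.88 and 12.40 on all 18 arrays. Transcripts of the other sex, which should be absent, lay between 3.95 and 6.30, and this range is used below as the level of an absent transcript. It places a level only roughly, since probe sets differ in background. Its top comes from Xist on the thymus arrays, while Y-linked transcripts reached no more than 5.86 on 11 of the 12 spleen arrays. One array went against its label: tagged perinate replicate 2, labelled female, had the Y-linked Eif2s3y at 9.79 and Xist at 8.38, where the other spleen arrays had Xist between 11.86 and 12.41. The counts and calls that use it were also computed without it, and are given where a call changed or a result turns on them. Whether replicates came from separate animals is not stated, so p-values measure the spread between these samples, which may be technical. For one gene alone, exact permutation of 3 arrays against 3 reaches no p below 0.1, and all adjusted p-values come from limma fits over all genes with Benjamini-Hochberg adjustment.

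As background, a class II molecule is assembled from an alpha and a beta chain on the invariant chain CD74, which fills the groove and guides the complex to endosomes. There cathepsin S, the product of Ctss, trims CD74 to a short remnant, H2-DM exchanges that remnant for peptide, and H2-O restrains H2-DM. Transcription of the chain genes, Cd74, H2-DM and H2-O depends on CIITA, which is recruited by RFX and NF-Y bound to the X and Y boxes of their promoters. Presenting cells and thymic epithelium make these genes at high level, and mouse T cells are known to make little class II. NOD mice do not make the E molecule because their E alpha gene is silent, and carry their own A alleles. How well the array's probes match the NOD alleles was not tested.

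RefSeq promoters (GRCm38.p6, 250 bases before to 50 after the start of transcription) were at hand for 5 of the 8 genes: H2-Aa, H2-Eb1, H2-DMa, H2-Ob and Ctss. Those of 3 genes, and that of H2-Oa, the partner chain of H2-Ob, held the core of an X box, GCAAC, followed after 15 to 35 bases by the core of a Y box, TGATTGG. The 80 bases that hold this pair are shown, 5′ to 3′ on the gene's strand, with both cores in capitals to show their place. The search required this order of the cores, so the shared order is not a result.
H2-Aa: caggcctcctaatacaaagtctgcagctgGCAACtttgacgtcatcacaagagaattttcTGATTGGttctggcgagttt
H2-Eb1: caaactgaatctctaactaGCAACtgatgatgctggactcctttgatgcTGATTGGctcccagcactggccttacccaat
H2-Ob: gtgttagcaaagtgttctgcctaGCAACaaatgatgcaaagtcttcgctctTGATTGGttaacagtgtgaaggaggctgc
H2-Oa: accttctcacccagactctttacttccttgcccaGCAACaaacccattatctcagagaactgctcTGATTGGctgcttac

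All 4 stretches lie within the class II region of chromosome 17 and run from 110 to 31 bases before the start: chr17:34287854-34287933 on the minus strand for H2-Aa, and, on the plus strand, chr17:34305757-34305836 for H2-Eb1, chr17:34238795-34238874 for H2-Ob and chr17:34092269-34092348 for H2-Oa. The cores are 26, 25, 23 and 26 bases apart, and they do not overlap. The spacing was set after these promoters had been read. Searched on both strands, the pair is in 67 of 32851 promoters (0.204%), GCAAC alone in 35.2% and TGATTGG alone in 7.82%. H2-Aa also holds TGACGTCA, a cyclic AMP response core, between its cores, as 1.79% of promoters do anywhere. The pair was in neither of the 2 listed promoters of H2-DMa and not in that of Ctss. The Ctss promoter is shown for the 60 bases before its start (chr3:95526726-95526785, plus strand), with the interferon response core GAAANNGAAA in capitals, which 3.44% of promoters hold.
Ctss: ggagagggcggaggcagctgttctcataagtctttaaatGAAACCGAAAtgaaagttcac

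The genes of the A molecule itself were near the level of absent transcripts. H2-Aa, the A alpha chain, lay between 4.77 and 6.34 over the 18 arrays and was above 6.30 on 1 of them. H2-Ab1, the A beta chain, lay between 5.23 and 6.40 and was also above 6.30 on 1 array. On the spleen arrays, where absent Y-linked transcripts reached 5.86, the medians were 5.70 for H2-Aa and 5.89 for H2-Ab1. Ciita, the coactivator on which the route depends, lay between 5.99 and 6.79 and exceeded 6.30 on 13 of 18 arrays. None of these 3 genes reached the level filter in any group (a group mean of 7.05, the median of all values), so 5 of the 8 genes were tested. The E beta chain gene H2-Eb1 was higher, between 7.29 and 8.11 on every array, while H2-Ea, which encodes its partner chain, stayed between 5.17 and 5.96. The upper row of the plot of levels by group shows H2-Aa, H2-Ab1, H2-Eb1 and Ciita on every array.

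**Figure D1:**
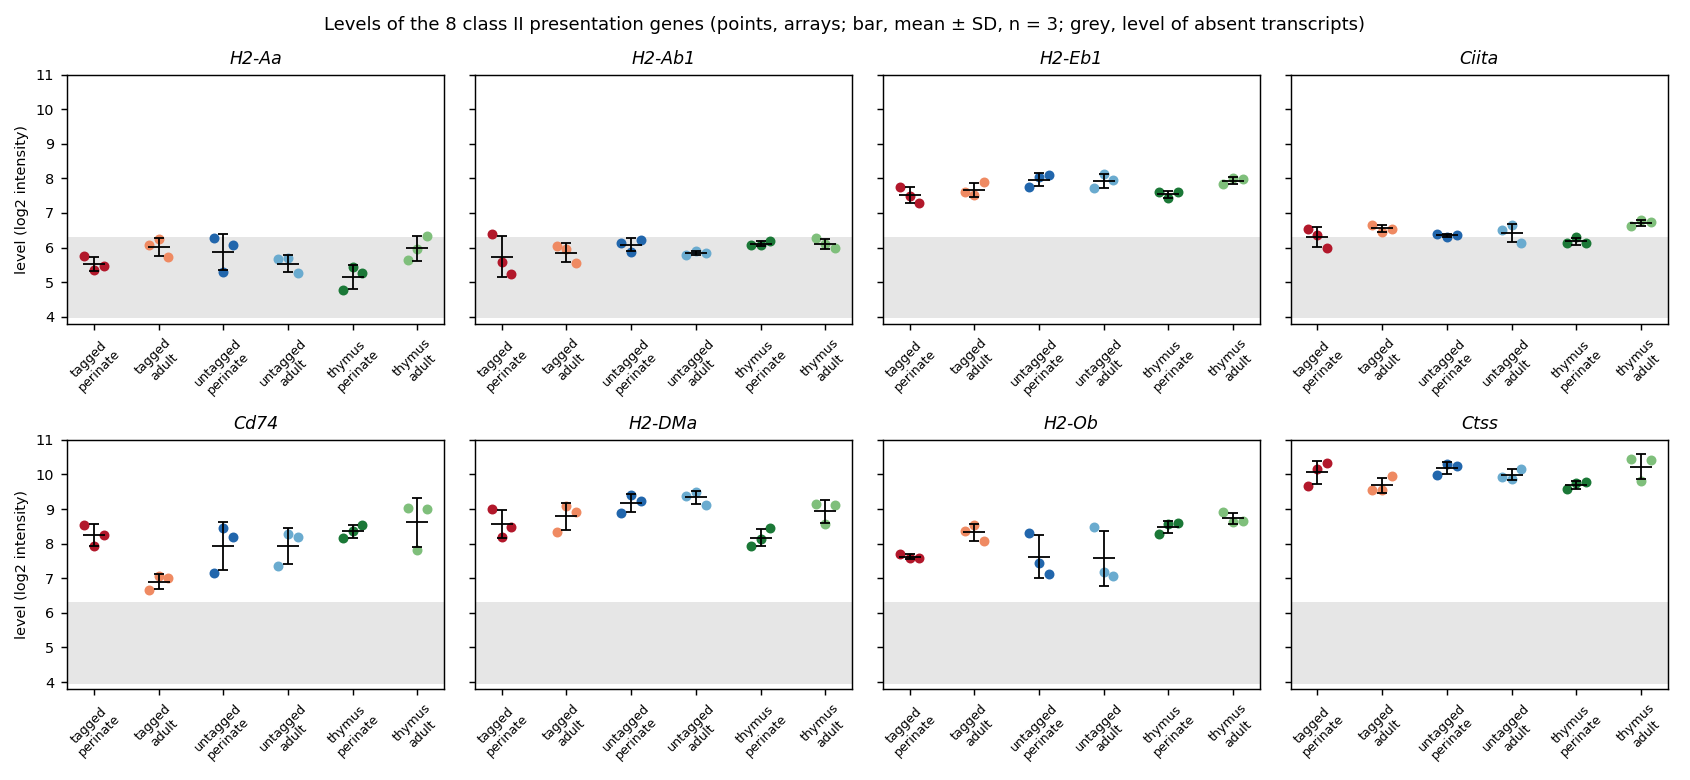
Log2 intensity of the 8 class II genes on each of the 18 arrays by group, with mean ± SD (n = 3) and, in grey, the range of transcripts that should be absent (3.95 to 6.30). H2-Aa, H2-Ab1 and Ciita lie in or just above the grey band, and Cd74 is lowest in tagged adult cells (6.65 to 7.05).

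Cd74 was the gene of the 8 with the widest range, 6.65 to 9.03. In tagged perinate cells it was at 8.55, 7.92 and 8.26 (replicates 2, 4 and 5), against 6.65, 7.05 and 7.01 in tagged adult cells (replicates 1, 2 and 3). The groups did not overlap, and Cd74 was 2.54-fold higher in tagged perinate cells (difference 1.34 ± 0.30 SE, 95% interval 0.70 to 1.98, limma adjusted p = 0.00672, n = 3 each). It was the 1 gene called among the 5 tested, where 19.5% of all 10350 genes tested were called and 16% were called higher. Relative to the median of all genes, 0.12, the difference was 1.23. That median depends on the scaling, since it was -0.04 after quantile normalization and 0.18 after centring each array on its median. Without tagged perinate replicate 2 the Cd74 difference was 1.19 (adjusted p = 0.0260). Across all 8 genes the median difference was -0.19 in the unfiltered fit.

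The replicate numbers of the labels moved with Cd74 in untagged cells. Untagged perinate cells had 7.15 in replicate 3, against 8.44 and 8.20 in replicates 4 and 5, and untagged adult cells had 7.35 in replicate 3, against 8.28 and 8.18 in replicates 4 and 5. Both replicates 3 were thus close to the tagged adult arrays, which carry the numbers 1 to 3. Tagged perinate replicates 4 and 5 were close to the untagged replicates 4 and 5, and tagged perinate replicate 2, the array that went against its label, was as high. What the numbers mark is not given in the labels. The Cd74 call was kept under 15 of 17 alternatives. In a fit with the replicate number as a block, the tagged difference of Cd74 was 0.82 (limma adjusted p = 0.0863). That fit links tagged arrays of numbers 3, 4 and 5 only through the untagged arrays. It takes the effect of a number as equal in tagged and untagged cells. With each array's interquartile range as a covariate the Cd74 difference was 1.13 (adjusted p = 0.198). Within replicate number 2, the only number that both tagged groups share, Cd74 was at 8.55 in the tagged perinate array, against 7.05 in the tagged adult array. The part of the replicate number in the Cd74 difference was not tested further.

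**Figure D2:**
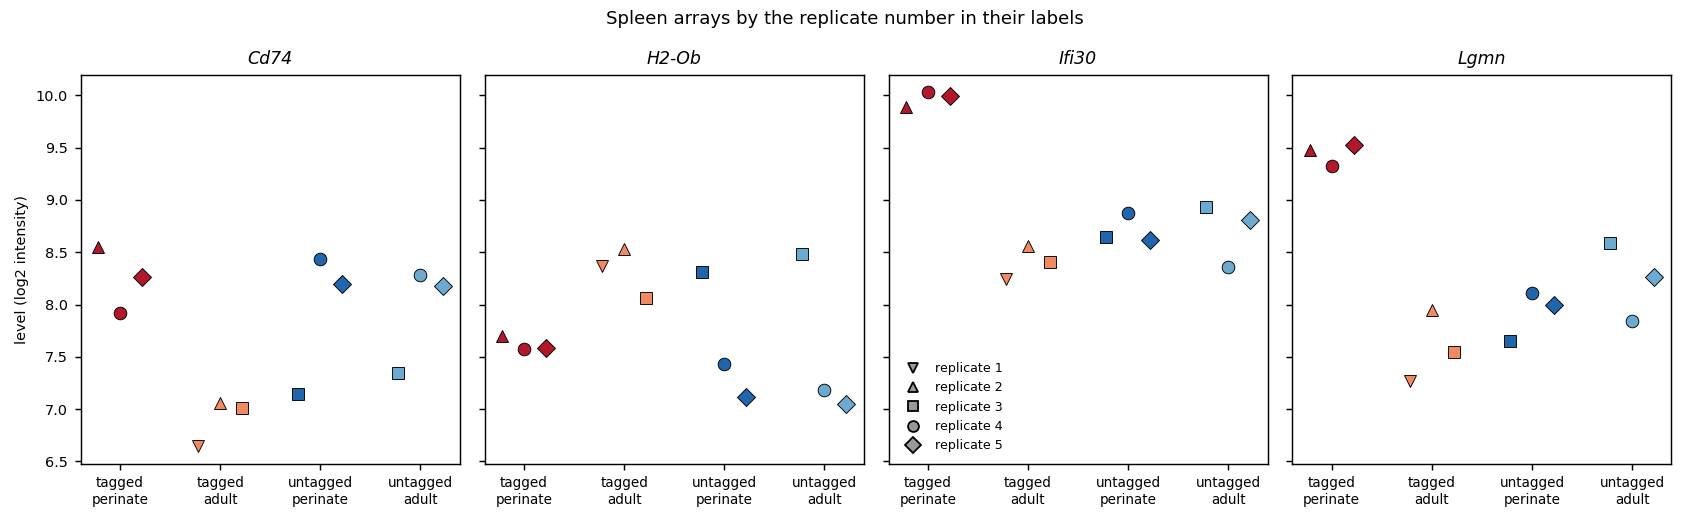
Log2 intensity of Cd74, H2-Ob, Ifi30 and Lgmn on the 12 spleen arrays, with the marker showing the replicate number of the label. Both untagged replicates 3 (squares) are low for Cd74 (7.15 and 7.35) and high for H2-Ob (8.31 and 8.49), while Ifi30 and Lgmn separate only the tagged perinate arrays from the others.

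Markers of presenting cells were set beside Cd74. Of 15 measured B cell markers, 7 stayed at or below 6.30 on every array, among them Cd79a, Ms4a1, Cr2 and Fcer2a, and 3 were above it on every array. The B cell list as a whole summed to between 1723 and 1991 linear intensity units in tagged perinate cells and between 1535 and 1628 in tagged adult cells. Its mean log2 level overlapped, at 6.12 to 6.29 in tagged perinate cells and 6.16 to 6.32 in tagged adult cells, and 10 of its 15 members had a difference below 0 (median -0.17). Of its 3 members tested, Cd79b, a chain of the B cell receptor complex, and Pou2af1, a B cell coactivator, were higher in tagged perinate cells, by 0.66 ± 0.14 (adjusted p = 0.00476) and 0.55 ± 0.18 (adjusted p = 0.0484). Ighm, the IgM heavy chain gene, was the third, at -0.39 (adjusted p = 0.179). Among members under the level filter, Fcer2a, the low-affinity IgE receptor, had -0.53 in the unfiltered fit (adjusted p = 0.0440). Pou2af1 did not pass without tagged perinate replicate 2 (0.51, adjusted p = 0.101). Defining markers at or below 6.30 on all arrays were Clec9a and Clec10a among 13 dendritic cell markers and Adgre1 among 13 macrophage and monocyte markers.

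The dendritic cell list summed to between 1817 and 2135 units in tagged perinate cells and between 1703 and 1986 in tagged adult cells, with Bst2 called higher among 3 tested (0.76 ± 0.24, and 1.16 without tagged perinate replicate 2, the lowest array of its group). Its mean log2 level was lower without overlap, at 6.50 to 6.60 in tagged perinate cells and 6.66 to 6.69 in tagged adult cells. Of its 13 members 11 had a difference below 0 (median -0.14), among them Cd209a (-0.48) and Xcr1 (-0.43), neither of which reached the level filter. The macrophage and monocyte list summed to between 1515 and 2268 units in tagged perinate cells and between 1083 and 1154 in tagged adult cells. Cybb, Ly86 and Cd68 were called higher among its 4 tested members, by 1.62 ± 0.44, 1.73 ± 0.21 and 0.54 ± 0.16. The list's mean log2 level was 6.59 to 7.03 in tagged perinate cells and 6.27 to 6.35 in tagged adult cells, and 9 of its 13 members had a difference above 0 (median 0.44). Among members under the level filter, Mpeg1 had 1.28 in the unfiltered fit (adjusted p = 0.00283) and Itgam 0.45, both without overlap. The 4 members below 0 included Fcgr1 (-0.23) and Cd14 (-0.20). With tagged perinate replicate 2 left out, 5 of its members were tested and all 5 were called higher. In thymic epithelium markers, Epcam was called higher among 5 tested (1.07 ± 0.23), and none of these 4 lists had a member called lower. The thymic epithelium list summed to between 1612 and 1726 units in tagged perinate cells and between 1504 and 1567 in tagged adult cells. Its mean log2 level overlapped, at 6.89 to 7.03 in tagged perinate cells and 6.88 to 6.95 in tagged adult cells, and 7 of its 11 members had a difference below 0, with Krt8 at -0.35 and Aire at -0.23 (neither called). Of plasma cell and T cell markers none of 2 and none of 7 tested was called, and of 5 Treg markers Il2ra, the IL-2 receptor alpha chain, fell (-0.39). Spread differed between the groups too, with interquartile ranges of 2.85 to 3.03 on tagged perinate arrays and 2.39 to 2.79 on tagged adult arrays. Its part in these list levels and counts of signs was not tested. Nor was the part of any of the listed cell types in the Cd74 difference.

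**Figure D3:**
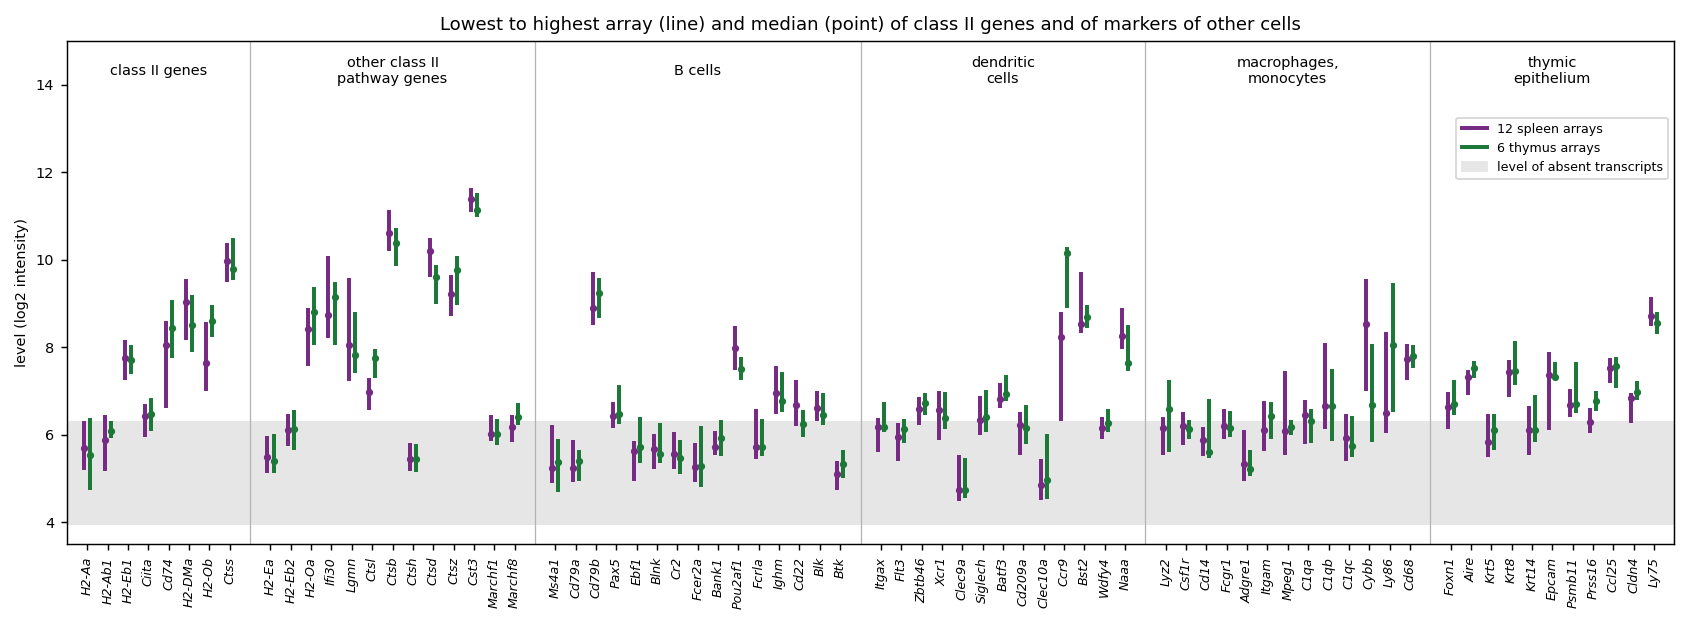
Log2 intensity of the 8 class II genes, of other genes of the route and of markers of B cells, dendritic cells, macrophages and monocytes, and thymic epithelium. Lines run from the lowest to the highest of 12 spleen or 6 thymus arrays, points are medians, and the grey band is the range of transcripts that should be absent. Of the 15 B cell markers, 7 stay within the band on every array.

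The peptide-loading genes did not follow Cd74. H2-Ob, the beta chain of the H2-DM inhibitor H2-O, was at 7.70, 7.57 and 7.58 in tagged perinate cells, against 8.37, 8.54 and 8.06 in tagged adult cells. The arrays did not overlap, but the difference of -0.71 ± 0.33 did not pass (adjusted p = 0.138, and 0.00152 when the tagged arrays alone entered the fit). Of the 8 genes, Cd74 and H2-Ob were the 2 whose tagged arrays did not overlap, and 36.9% of all 19752 genes had arrays that did not overlap in either direction. H2-Oa, the alpha chain of H2-O, had 8.42, 8.41 and 8.45 in tagged perinate cells, against 7.61, 8.18 and 7.89 in tagged adult cells (0.53 ± 0.22, adjusted p = 0.0969). The 2 chains of the same inhibitor thus had differences of opposite sign, and neither passed.

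H2-Ob carried the replicate numbers as Cd74 did, in the other direction. It was at 8.31 in untagged perinate replicate 3, against 7.43 and 7.12 in replicates 4 and 5, and at 8.49 in untagged adult replicate 3, against 7.18 and 7.05 in replicates 4 and 5. With the replicate number as a block its tagged difference was -0.11 (adjusted p = 0.864). Over the 18 arrays, centred on their group means, H2-Ob and Cd74 had r = -0.53, and H2-DMa and Cd74 had r = 0.72. These are descriptions across arrays that share their group structure and scaling. H2-DMa, the alpha chain of the peptide exchanger, was at 9.00, 8.20 and 8.48 in tagged perinate cells and at 8.35, 9.09 and 8.93 in tagged adult cells, with overlapping arrays (-0.23 ± 0.22, adjusted p = 0.489). H2-Eb1 was at 7.75, 7.49 and 7.29 in tagged perinate cells and at 7.60, 7.51 and 7.89 in tagged adult cells (-0.16, adjusted p = 0.507). Without tagged perinate replicate 2 the differences of H2-Ob, H2-Oa, H2-DMa and H2-Eb1 were -0.75, 0.54, -0.44 and -0.28, and none passed.

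Ctss, which trims the invariant chain, was at 9.68, 10.17 and 10.33 in tagged perinate cells, against 9.56, 9.54 and 9.94 in tagged adult cells. The arrays overlapped and the difference of 0.38 ± 0.17 did not pass (adjusted p = 0.136). Replicate 2 was the lowest tagged perinate array, and without it the difference was 0.57 (adjusted p = 0.0292).

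Lgmn and Ifi30, endosomal enzyme genes outside the 8, had larger differences than Cd74. Of 13 measured genes of a list of other class II route genes, 7 were tested, 4 rose and 0 fell. Of all genes tested, 16% rose and 3.5% fell. The median difference was 0.53 over the 7 tested and 0.20 over the 13 measured, against 0.12 over all genes tested. Lgmn encodes asparagine endopeptidase, which opens antigens and the invariant chain for other proteases. It was at 9.48, 9.32 and 9.53 in tagged perinate cells, against 7.27, 7.95 and 7.55 in tagged adult cells (1.86 ± 0.20, adjusted p = 1.84e-05). Ifi30 encodes the interferon-inducible thiol reductase that opens disulfide bonds of antigens in endosomes. It was at 9.89, 10.03 and 10.00 in tagged perinate cells, against 8.24, 8.56 and 8.41 in tagged adult cells (1.57 ± 0.15, adjusted p = 7.21e-06).

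For both enzymes the tagged perinate arrays lay above all other spleen arrays, and the untagged replicates 3 did not stand together. Without tagged perinate replicate 2 the differences were 1.84 for Lgmn (adjusted p = 0.000128) and 1.61 for Ifi30 (adjusted p = 3.88e-05). With the replicate number as a block they were 1.73 and 1.52 (adjusted p = 0.000350 and 0.000292). Ctsb and Ctsz, which encode the lysosomal cathepsins B and Z, were higher by 0.61 ± 0.13 and 0.52 ± 0.15 (adjusted p = 0.00410 and 0.0296). Neither passed with the replicate number as a block (0.49 and 0.47, adjusted p = 0.0797 and 0.215), and Ctsz passed under 8 of 17 alternatives and not without tagged perinate replicate 2 (0.53, adjusted p = 0.0506).

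Genes that act before and beside class II gave the following counts, where 16% of all genes tested were called higher in tagged perinate cells. Of 8 factors that bind class II promoters (the RFX, NF-Y and CREB proteins and a CIITA partner), all were tested and 1 rose in tagged perinate cells, Nfyb, a subunit of NF-Y (0.57 ± 0.16, adjusted p = 0.0244). The median of the 8 was 0.08, against 0.12 over all genes. Of 9 genes on the route from interferon gamma to Ciita, 2 rose: Irf4 (0.97 ± 0.20) and Irf8 (0.58 ± 0.18), both transcription factors of lymphoid and myeloid cells. Named for their roles after their values were seen, the receptor chains Ifngr1 and Ifngr2 had differences of 0.15 and -0.02, and Irf1, which acts on the Ciita promoter, of 0.20, none of which passed. Irf8 lost its call without tagged perinate replicate 2 (0.57, adjusted p = 0.0647).

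Of 6 genes for costimulation and checkpoint partners on presenting cells, 4 rose and 0 fell, where 16% of all genes tested rose and 3.5% fell. Cd80, a ligand of CD28 and CTLA-4, was at 9.17, 9.10 and 9.02 in tagged perinate cells, against 7.28, 8.01 and 7.85 in tagged adult cells (1.38 ± 0.24, adjusted p = 0.00112). Pdcd1lg2 and Cd274, the ligands of PD-1, differed by 1.02 ± 0.25 and 0.43 ± 0.14, and Icosl, the ligand of ICOS, by 0.45 ± 0.14. Cd86, the other ligand of CD28, differed by 0.42 ± 0.15 and did not pass (adjusted p = 0.0627). Cd40 was the 1 member below 0 (-0.06, adjusted p = 0.723). The list's median difference was 0.44. When tagged perinate replicate 2 was left out, 5 of the 6 passed, Cd86 among them (0.52, adjusted p = 0.0384).

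In untagged cells the time of tamoxifen left no called difference. Cd74 differed by -0.01 ± 0.30 between untagged perinate and untagged adult cells (95% interval -0.65 to 0.63), and the other 4 tested class II genes by between -0.15 and 0.20. None of the 5 was called, nor was any of the 10350 genes (0%), of which 380 had an unadjusted p under 0.05. The class II genes had no call with the replicate number as a block either.

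The difference between the tagged and the untagged difference was then tested directly. For Cd74 it was 1.35 ± 0.42 and did not pass (adjusted p = 0.0889), so the Cd74 difference is not shown to depend on the tag. No class II gene of the 8 was called, where 4.89% of genes were. Without the untagged replicates 3 the Cd74 value was 1.26 (adjusted p = 0.00490), an alternative chosen after the values were seen. It was 1.65 without untagged adult replicate 3 alone (adjusted p = 0.0168) and 1.61 without untagged perinate replicate 4 (adjusted p = 0.0421). H2-Ob differed by -0.75 (adjusted p = 0.406), and by -1.21 without untagged adult replicate 3 (adjusted p = 0.0442). Among the other route genes, Lgmn (2.17 ± 0.28, adjusted p = 0.000386), Ifi30 (1.56 ± 0.21, adjusted p = 0.000558) and Ctsb (0.68 ± 0.18, adjusted p = 0.0402) passed this test, and so did Cd80 (1.73 ± 0.34, adjusted p = 0.00731). Without tagged perinate replicate 2 the Cd74 value was 1.20 (adjusted p = 0.158), and Lgmn (2.15) and Ifi30 (1.60) passed while Ctsb did not (0.63, adjusted p = 0.0782). Among the marker lists, Cd79b (0.77), Ly86 (1.85) and Epcam (1.38) passed as well, Cd79b not without that array (0.71, adjusted p = 0.0702). Other calls were gained without it. Of 5 macrophage and monocyte markers then tested, 4 passed: Mpeg1, C1qb, Cybb and Ly86. Bst2 of the dendritic cell list and Icosl passed too. The part of these markers was not tested.

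Tagged cells were also compared with untagged cells of the same treatment. After perinatal tamoxifen, none of the 5 tested class II genes was called, where 7.34% of genes were. H2-DMa had 9.00, 8.20 and 8.48 in tagged perinate cells, against 8.89, 9.42 and 9.23 in untagged perinate cells (-0.62 ± 0.22, adjusted p = 0.106). Replicate 2 overlapped the untagged arrays, and without it the difference was -0.84 (adjusted p = 0.0359). Cd74 differed by 0.32 ± 0.30 (adjusted p = 0.574), and H2-Eb1 by -0.45 (adjusted p = 0.107). Lgmn and Ifi30 rose in tagged perinate cells against untagged perinate cells, by 1.53 ± 0.20 and 1.26 ± 0.15 (adjusted p = 0.000488 and 0.000242). Irf8, 1 of 3 tested B cell markers (Cd79b) and 2 of 4 macrophage and monocyte markers (C1qb and Ly86) were called higher too. Of 13 measured macrophage and monocyte markers, 11 were above 0 and 2 below. B cell markers had 6 above and 9 below, and dendritic cell markers 4 and 9. Without tagged perinate replicate 2, Bst2 and Mpeg1 were also called higher. Their part was not tested.

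After adult tamoxifen, again none of the 5 was called, where 0.271% of genes were. All 3 tagged adult arrays had less Cd74 (6.65 to 7.05) than any untagged adult array (7.35 to 8.28), a difference of -1.03 ± 0.30 that did not pass (adjusted p = 0.141). H2-DMa also did not overlap and did not pass (-0.55 ± 0.22, adjusted p = 0.249). Without untagged adult replicate 3, which had the lowest Cd74 of its group, the Cd74 difference was -1.33 (adjusted p = 0.0173), and that of H2-Ob was 1.21 (adjusted p = 0.0150). The tagged and untagged comparisons share arrays with each other and with the perinate and adult comparisons, so their values are not independent of one another.

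**Figure D4:**
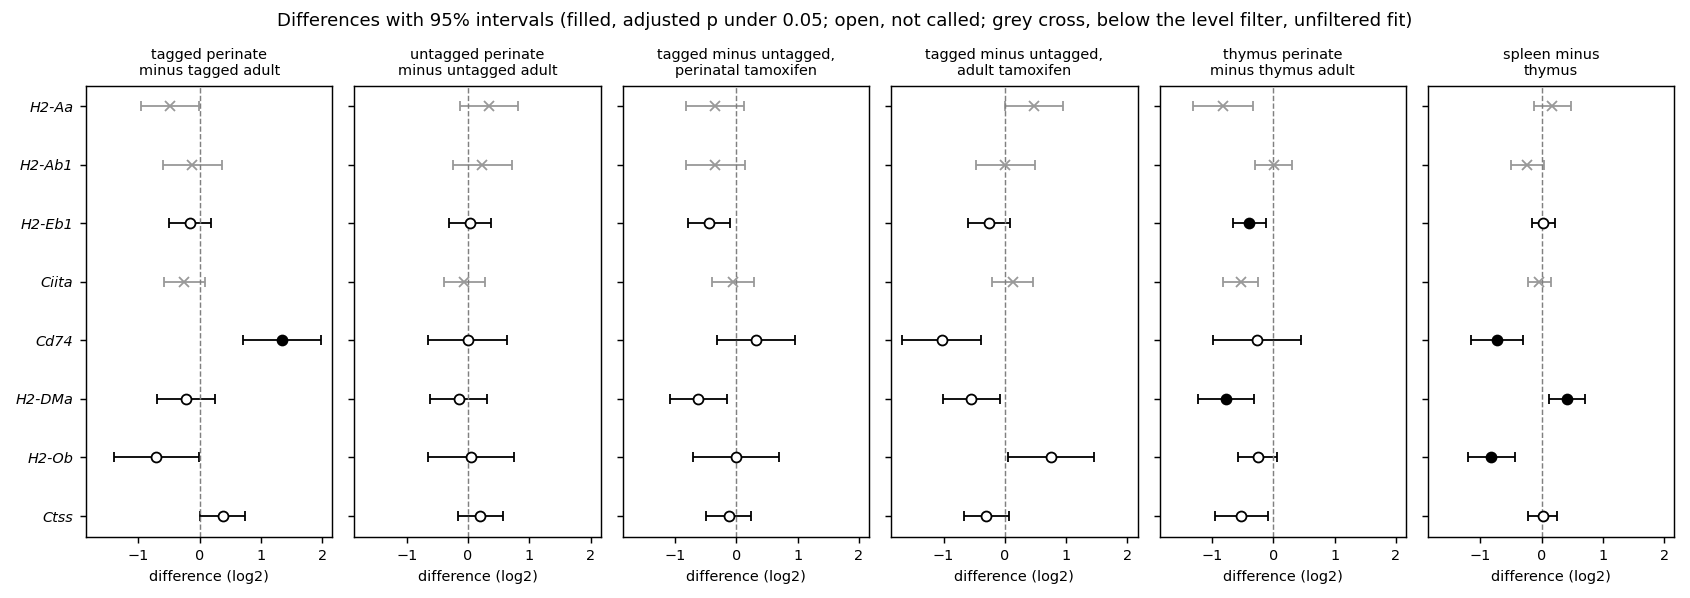
Log2 differences of the 8 class II genes with 95% intervals in 6 comparisons, the first-named group minus the second. Filled points have a limma adjusted p under 0.05, open points do not, and grey crosses are genes below the level filter, from the unfiltered fit. In the first panel Cd74 (1.34) is the filled point, and in the thymus panel H2-DMa (-0.77) and H2-Eb1 (-0.39) are.

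In the thymus, H2-DMa and H2-Eb1 were lower in perinate than in adult Tregs. H2-DMa was at 7.93, 8.15 and 8.44 in thymus perinate cells, against 9.15, 8.56 and 9.11 in thymus adult cells (-0.77 ± 0.20, adjusted p = 0.0284). H2-Eb1 was at 7.60, 7.43 and 7.60 in thymus perinate cells, against 7.83, 8.01 and 7.97 in thymus adult cells (-0.39 ± 0.12, adjusted p = 0.0440). These 2 of 5 tested genes fell, where 24.3% of all 10650 genes were called and 5.84% were called lower. Relative to the median of all genes, 0.17, they differed by -0.94 and -0.56. That median was -0.00 after quantile normalization and 0.28 after median centring, and under median centring neither gene passed (adjusted p = 0.0594 and 0.119). Nor did either pass without any 1 of the thymus perinate arrays or without thymus adult replicate 3, where adjusted p lay between 0.0543 and 0.120 for H2-DMa and between 0.115 and 0.184 for H2-Eb1.

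For 6 of the 8 genes no thymus perinate array reached any thymus adult array, where 26.3% of all 19752 genes were lower without overlap. Ctss was at 9.57, 9.75 and 9.78 in thymus perinate cells, against 10.44, 9.80 and 10.42 in thymus adult cells (-0.52, adjusted p = 0.0717). Ciita was at 6.12, 6.30 and 6.13 in thymus perinate cells, against 6.63, 6.79 and 6.74 in thymus adult cells. In the unfiltered fit its difference was -0.53 (adjusted p = 0.0311), and that of H2-Aa was -0.82 (adjusted p = 0.0440), both at levels near those of absent transcripts. Cd74 and H2-Ab1 overlapped. Cd74 was at 8.15, 8.36 and 8.54 in thymus perinate cells and at 9.03, 7.80 and 9.02 in thymus adult cells (-0.27 ± 0.31, adjusted p = 0.523).

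Thymus adult replicate 2 was the lowest of its group for Cd74, H2-DMa, H2-Ob and Ctss, and had the narrowest spread of all arrays (interquartile range 1.98, against 2.39 to 3.03 on the others). Without it the differences of Cd74 (-0.67, adjusted p = 0.00139) and Ctss (-0.73, adjusted p = 0.000327) passed. Lgmn fell in thymus perinate cells by 0.80 (adjusted p = 0.0258), the 1 gene called lower of 8 tested in the list of other route genes, and 0 rose. Cd80 and Ifngr1 fell, by 0.80 (adjusted p = 0.00480) and 0.44 (adjusted p = 0.0278), while Icosl, Irf4 and Nfyb rose, by 0.64, 0.49 and 0.81. Members of the marker lists were called in both directions: C1qb (-1.14) and Cybb (-1.70) fell and Ly86 (2.17) rose among 4 tested macrophage and monocyte markers, and Bst2 (-0.36) fell among 4 dendritic cell markers. Ccl25 (0.42, adjusted p = 0.0486) rose among 6 tested thymic epithelium markers, and Cd3g (-0.42, adjusted p = 0.0339) fell among 7 T cell markers. Of the 2 B cell markers tested none was called. In linear sums the macrophage and monocyte list summed to between 1401 and 1665 units in thymus perinate cells and between 1344 and 1466 in thymus adult cells. The dendritic cell list summed to between 2393 and 2461 units in thymus perinate cells and between 2156 and 2736 in thymus adult cells.

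On the log2 scale, most markers of presenting cells were lower in thymus perinate cells together with 6 of the 8 class II genes. The markers were mostly at levels near those of absent transcripts. The mean log2 level of the B cell list was 5.97 to 6.04 in thymus perinate cells and 6.29 to 6.50 in thymus adult cells, and 14 of its 15 members had a difference below 0 (median -0.38). Among them were Ms4a1 (-0.79, adjusted p = 0.0111) and Ebf1 (-0.70, adjusted p = 0.0148) in the unfiltered fit. The dendritic cell list was at 6.62 to 6.64 in thymus perinate cells and 6.79 to 7.01 in thymus adult cells, with 12 of 13 members below 0 (median -0.27). The macrophage and monocyte list was at 6.28 to 6.43 in thymus perinate cells and 6.47 to 6.69 in thymus adult cells, with 9 of 13 members below 0 (median -0.28). None of these 3 lists overlapped between the groups. Xist, which should be absent in these male cells, was also lower without overlap (5.81 against 6.17, difference -0.36 in the unfiltered fit). All 4 plasma cell markers and 8 of 11 thymic epithelium markers had a difference below 0 as well. Of 7 T cell markers, 4 were below 0 and 3 above, with Cd3g (-0.42), Thy1 (-0.33) and Cd3e (-0.25) lower without overlap. Interquartile ranges were 2.89 to 2.97 on thymus perinate arrays and 1.98 to 2.76 on thymus adult arrays. The part of this spread in the list levels was not tested. Nor was the part of presenting cells in the class II differences.

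Whether the perinate and adult difference was the same in tagged spleen and in thymus was tested in 1 fit of all 18 arrays, a comparison added after the values were seen. Cd74 (1.61 ± 0.47, adjusted p = 0.0477) and Ctss (0.90 ± 0.26, adjusted p = 0.0487) were more positive in tagged spleen, 2 of 5 tested genes, where 6.46% of genes were called. Without tagged perinate replicate 2 the Cd74 value was 1.45 (adjusted p = 0.108), and over 22 alternatives Cd74 passed under 7 and Ctss under 9. Lgmn had the widest gap of the route genes named (2.66 ± 0.30, adjusted p = 1.47e-05), being higher in tagged perinate spleen cells and lower in thymus perinate cells. Age, sex and sorter differ with tissue here and cannot be told apart from it.

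Between tissues, 3 of the 5 tested genes differed, where 31.9% of 10889 genes did. H2-Ob ranged from 7.05 to 8.54 in the 12 spleen arrays (median 7.64) and from 8.27 to 8.91 in the 6 thymus arrays (median 8.61), and was lower in spleen (-0.82 ± 0.18, adjusted p = 0.00219). Cd74 ranged from 6.65 to 8.55 in spleen (median 8.05) and from 7.80 to 9.03 in thymus (median 8.45), and was also lower in spleen (-0.73 ± 0.20, adjusted p = 0.0103). H2-DMa ranged from 8.20 to 9.50 in spleen (median 9.04) and from 7.93 to 9.15 in thymus (median 8.50), and was higher in spleen (0.41 ± 0.14, adjusted p = 0.0304). The ranges overlapped for all 3 genes. H2-DMa did not pass when any 1 of 5 arrays was left out (adjusted p up to 0.0947, without thymus perinate replicate 1). H2-Eb1 (0.03) and Ctss (0.02) did not pass, with 95% intervals of -0.16 to 0.22 and -0.22 to 0.26. Of 8 tested genes in the list of other route genes, Ctsb and Ctsd were higher in spleen and H2-Oa, Ctsl and Ctsz lower.

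By mean level, the 6 groups stood in the following order for Cd74: thymus adult (8.62 ± 0.70 SD), thymus perinate (8.35 ± 0.19), tagged perinate (8.25 ± 0.31), untagged adult (7.94 ± 0.51), untagged perinate (7.93 ± 0.69) and tagged adult (6.90 ± 0.22), each with n = 3. Neighbours in this order overlapped except at its end, where tagged adult lay 1.03 below untagged perinate. Over the 8 genes, 3 of 40 neighbouring pairs of groups did not overlap. Besides that of Cd74 these were thymus adult above thymus perinate for H2-Ob and untagged adult above thymus perinate for Ctss.

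The genes whose levels went most like the mean of Cd74, H2-Aa, H2-Ab1 and H2-Eb1 over the 18 arrays, among 5181 genes that varied by at least 1, were Derl3 (Pearson r = 0.81), Ciart (0.78) and Src (0.78). With each group centred on its mean they were Btbd19 (0.89), Rad18 (0.84) and Per1 (0.84). Against Cd74 alone, r over the 18 arrays was 0.52 for Ctss, 0.11 for H2-DMa and -0.33 for H2-Aa. These are the highest of many correlations over arrays that share groups and scaling, and are given as descriptions.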

How the data were processed

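RNA of sorted mouse Tregs was measured on 18 one-colour Affymetrix Mouse Gene 1.0 ST arrays, and the authors made the deposited probe set intensity values, on a linear scale, by RMA in the Affymetrix Power Tools, per the submitters' processing notes. Versions, genome build and the set of arrays normalized together are not given in the sources used here. Chimera samples that the series text describes are not analysed here. Of 24922 probe sets, 21425 had 1 annotated symbol, 1399 several and 2098 none, from GEO's platform annotation (21347 had an Entrez ID in the RefSeq table, and 0 symbols differed there). Keeping the probe set of highest mean for each gene left 19752 genes. H2-DMb1 and H2-DMb2 share a probe set with several symbols, which was not used.

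Values were log2 transformed without a pseudocount and not normalized again. Genes entered a fit when a group mean reached 132.7 (log2 7.05), the median of all values. Group differences were fitted in R 4.3.3 with limma 3.58.1 (lmFit, eBayes, 1 coefficient per group, two-sided) over 10350 genes (12 spleen arrays), 10650 (6 thymus arrays) or 10889 (all 18), with Benjamini-Hochberg adjustment and a threshold of 0.05, and the code was tested on simulated data. Precision is limited by the number of arrays, as arrays give no read depth. The plan was to name all 8 genes in each comparison, and of each list up to 4 genes past 0.05 by size. Fewer are named in some comparisons. Genes below the level filter are not always named, and between tissues only the list of other route genes is covered. H2-Oa, Cd86, Irf1 and the interferon gamma receptor chains were added for their roles after their values were seen, and Cd40 for its sign. Members, lists and tests were chosen with earlier results of these data known. Replicate numbers were checked by correlating deviations of same-numbered arrays from group means: 0.62, 0.13 and 0.45 for untagged numbers 3, 4 and 5, each over 0.1, so these were taken as pairs, on the arrays' values alone since the labels do not explain the numbers. Untagged number 4 correlated better with number 5 (0.28 and 0.29), so the values set number 3 apart and do not tell 4 from 5. The correlations were -0.05, 0.07 and 0.12 in thymus, which were not. With a tagged array in the pair, none was over 0.1. They were 0.0007 for number 2 of tagged perinate and tagged adult cells, and 0.06 for number 3 of tagged and untagged adult cells. For numbers 4 and 5 of tagged and untagged perinate cells they were -0.11 and -0.0009. Alternatives covered scaling, filter, probe sets, prior, array weights, arrays in the fit, interquartile range, pairing and leaving out each array. Leaving out tagged perinate replicate 2 for every listed gene was added after seeing the data. Promoters come from RefSeq (GRCm38.p6). Plots were made in Python 3.11.15 (matplotlib 3.10.9).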

Additional observations from a re-analysis of the deposited data

Results flagged for a closer look

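Several values stood out because the perinate and adult difference itself differed between 2 settings by a limma test adjusted over all genes. Between tagged and untagged spleen cells the gap was 2.17 for Lgmn (adjusted p = 0.000386), 1.56 for Ifi30 (adjusted p = 0.000558) and 0.68 for Ctsb (adjusted p = 0.0402). Between tagged spleen and thymus it was 2.66 for Lgmn (adjusted p = 1.47e-05), 1.18 for Ifi30 (adjusted p = 0.0317), 1.61 for Cd74 (adjusted p = 0.0477) and 0.90 for Ctss (adjusted p = 0.0487). Both values of Lgmn and the first of Ifi30 passed under all alternatives run, 23 for the first test and 22 for the second. The Cd74 value passed under 7 of 22 alternatives and the Ctss value under 9 of 22, that of Ifi30 in the second test under 12 of 22, and that of Ctsb under 10 of 23. Groups of 3 arrays were not tested for outlying arrays.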

How the results depend on the processing

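Over 40 tests of a class II gene in a comparison, 8 were called, and 2 of these, Cd74 and H2-Ob between spleen and thymus, were called under every alternative run. Of 800 alternative values, 718 kept the call, 49 lost it and 33 gained it, and no called value changed sign. The count of class II genes called between tagged perinate and tagged adult cells was 1. It became 5 with array weights, where 5904 of 10350 genes were called, against 2020 as reported. With the interquartile range as a covariate it was 0, where 385 genes were called. It was 2 with only the arrays compared and 0 with the replicate block, and leaving out 1 array gave 1 to 2. Counts over all genes moved in the other settings too, with ranges given below. With the replicate block it became 1 between tagged and untagged cells after perinatal tamoxifen (0 before, and 2 in a block of replicates 4 and 5 only), 1 in thymus (2 before) and 0 between tagged spleen and thymus differences (2 before). In untagged cells, whose numbers were taken as pairs, the replicate block kept 0 and changed no class II call. Array weights gave 2 between tagged and untagged cells after perinatal tamoxifen, where 3867 of all genes were called, against 760. Only the arrays compared gave 1 after adult tamoxifen, against 0. In thymus, quantile normalization gave 4 and median centring 0, against 2, while 2272 and 2495 of all genes were called, against 2589. For the gap between tagged spleen and thymus, 0 were called with median centring, 0 without the filter, 1 with a trended and robust prior and 1 with only the arrays compared. Leaving out 1 array gave 0 to 2 for the gap between tagged and untagged differences, 0 to 1 for tagged against untagged after perinatal tamoxifen, 0 to 2 after adult tamoxifen, 0 to 4 in thymus, 2 to 3 between tissues and 0 to 2 for the gap between tagged spleen and thymus. Without both untagged replicates 3, an alternative chosen after seeing the data, each of the 3 comparisons with tagged cells that use untagged arrays called 2. After adult tamoxifen that setting called 1450 of all genes, against 28. The cause of these changes was not tested. Ctsb in thymus reversed, with -0.41 when the interquartile range was a covariate, against 0.06.

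Counts over all genes moved by more than 1.5 times in many settings: 385 to 5904 (2020 as reported) for tagged perinate against adult, 0 to 49 (0) for untagged cells, 274 to 1077 (506) for the gap between them, 299 to 3867 (760) and 0 to 1450 (28) for tagged against untagged after perinatal and adult tamoxifen, 707 to 4388 (2589) in thymus, 2749 to 6800 (3476) between tissues and 393 to 5085 (703) for the gap between tagged spleen and thymus. The share of calls that were higher was 82.1% for tagged perinate against adult and 54.3% after quantile normalization, 87.7% and 72.4% for the gap to untagged cells, 74.7% and 57.5% for tagged against untagged after perinatal tamoxifen, 76% and 53.8% in thymus (86.6% after median centring), and 47.3% and, after median centring, 68.3% between tissues.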
